A study of Bos taurus with 21 samples.

Results

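The genes described here encode the constitutive proteasome, the protein complex that degrades ubiquitin-tagged proteins in every cell. Members were all gene symbols in the count files that start with PSMA, PSMB, PSMC, PSMD, PSME, PSMF or PSMG, without the immunoproteasome subunits PSMB8, PSMB9 and PSMB10. The rule found 43 of 13570 named genes. It used no measured value, but the members were chosen with earlier results of these data known. RNA was sequenced from somatic cells shed into the milk of 21 lactating Holstein cows of parity 2 to 4, kept on 1 Korean farm. The study divided the cows by a breeding index into a high yielding group (HY, 9 cows) and a low yielding group (LY, 12 cows). The labels name no treatment. HY cows were sampled between 41 and 268 days of lactation (median 168) and LY cows between 52 and 270 days (median 211.5). The labels also give each cow values of milk yield, milk fat, milk protein and milk solid, with no unit. The age of the cows was not given in the labels.

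The proteasome has a barrel-shaped core made of alpha and beta rings, which is capped by a regulatory particle. The beta subunits PSMB5, PSMB6 and PSMB7 cut the protein chain, the alpha subunits PSMA1 to PSMA7 gate the entrance, and the PSMC ATPases at the base of the cap unfold the substrate and thread it inwards. The PSMD subunits of the lid and base bind and deubiquitinate substrates, and the PSMG and some PSMD proteins are chaperones that leave once the particle is built. Cells of the immune system can carry PSMB8, PSMB9 and PSMB10 in place of the catalytic subunits. Interferon induces these subunits and the activators PSME1 and PSME2. Milk somatic cells are a mixture of neutrophils, macrophages, lymphocytes and shed mammary epithelial cells, so both forms of the complex can occur in one sample.

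Between 7878557 and 28541904 reads were counted on genes per cow, with a median of 11826889. The 10 most highly counted genes took from 9.97% to 62.9% of the counts of a cow. Factors of the trimmed mean of M-values method (TMM), which rescale libraries that a few genes dominate, ranged from 0.450 to 1.51 and were under 0.5 for HY cow 8 and HY cow 9. Cows are numbered in accession order within each group, so the number only names a cow. Every marker of the neutrophil, macrophage, T cell, B cell and mammary epithelium lists that has a line in the count files was counted in at least some cows. CSF3R, MARCO, MRC1, CD79B and LGB of these lists were not used here. The epithelial markers, mostly milk protein genes, held between 0.121% and 60.5% of the counts of a cow. In such bulk samples, fewer cells of one type and less RNA per cell cannot be told apart.

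Of the 43 members, 42 had at least 10 counts in at least 7 cows and entered the tests among 9724 genes, and 40 had at least 10 counts in every cow. PSMB11, the catalytic subunit of the thymic proteasome, had 3 counts in LY cow 7 and 0 counts in the other 20 cows, so it was not tested. PSMC3IP, which the rule takes in by its symbol, is a meiotic recombination protein and not a proteasome subunit, and it had between 0 and 33 counts per cow. The 42 tested members together took from 0.281% to 0.642% of the counts on genes. Their levels varied less between cows than those of most genes, in a comparison that was not matched for expression level. The median SD of log2 expression was 0.441 over the members against 0.718 over all genes tested, where log2 expression is log2(CPM + 0.25) and CPM is the count scaled to library size and TMM factor. The core chaperone PSMG2 varied least, with an SD of 0.233 and 29.2 to 55.1 CPM. PSMB5, the chymotrypsin-like catalytic subunit, had an SD of 0.787.

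PSMD8, a subunit of the lid, had the widest spread, with an SD of 2.17. It had 0 counts in HY cow 6, 2 counts in HY cow 3, 2 counts in LY cow 5 and 3 counts in LY cow 1, while the other 17 cows had 54 to 395 counts, with a median of 188. The 4 cows with almost no PSMD8 reads belonged to both groups, and no cow lay between 3 and 54 counts. Their totals of 8585010 to 11826889 reads overlapped those of the other 17 cows, and the lid subunit PSMD3 had 640 to 952 counts in them. They were sampled at 101, 102, 268 and 270 days of lactation, and other cows sampled within 10 days of each of these dates had 54 counts or more.

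**Figure D1:**
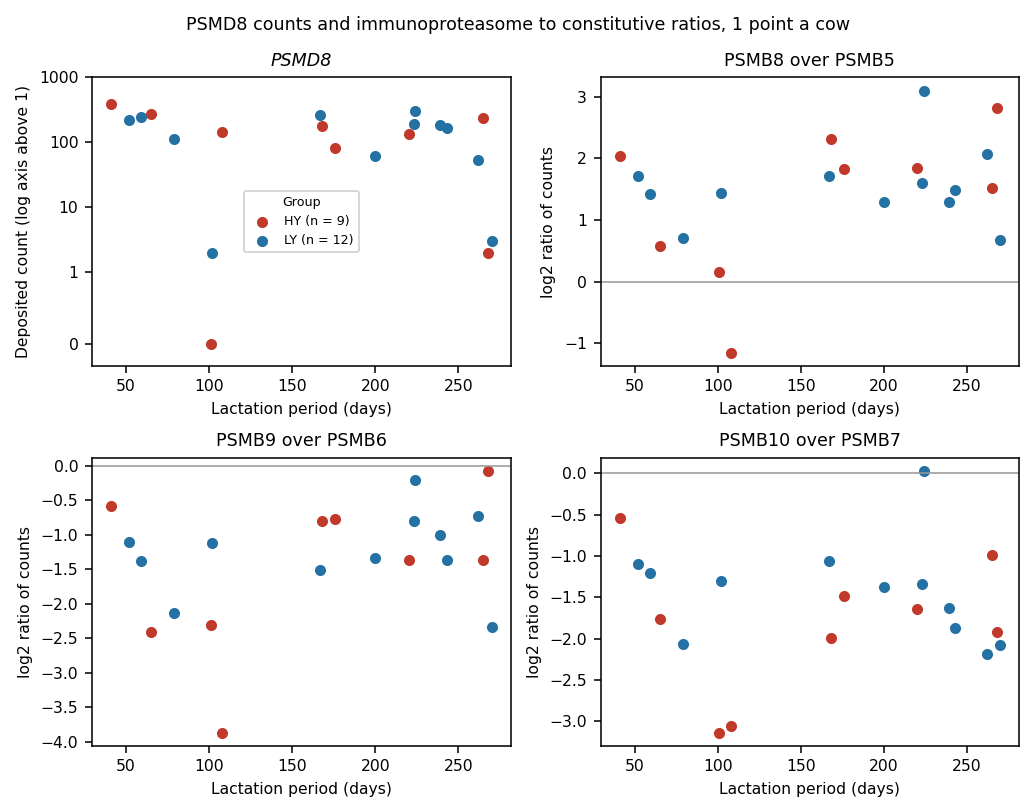
Deposited counts of PSMD8 (top left, log axis above 1) and the log2 ratio of the counts of each immunoproteasome subunit to its constitutive counterpart, against lactation period in days; each point is a cow, colored by group (9 HY, 12 LY). PSMD8 was at 0 to 3 counts in 4 cows and at 54 to 395 in the other 17, and the 3 ratios spread widely at every stage of lactation.

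The members were first compared with lactation period. Most members had a negative slope, that is, a lower fitted level in cows later in lactation, but no member passed the threshold. The slope over the 21 cows was negative for 36 of 42 members, while 50.4% of all genes tested had a negative slope. The median slope was -0.22 on the log2 scale per 100 days for the members and -0.0036 for all genes. EdgeR's quasi-likelihood test (Benjamini-Hochberg adjustment over all 9724 genes) called 0 members and 0 genes (0% called) at an adjusted p under 0.05, the lowest adjusted p of a member being 0.0639, that of PSMB5. At an unadjusted p under 0.05 there were 18 members, all with a negative slope, while 24.1% of all genes were under that value, 14.9% with a negative and 9.19% with a positive slope. DESeq2 called 8 members at an adjusted p under 0.05, in a fit that called 8.94% of all genes, and limma voom called 0, with 19 members at an unadjusted p under 0.05.

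By role, the beta ring had the steepest median slope. All 7 beta subunits had a negative slope, 6 of them at an unadjusted p under 0.05, with a median of -0.47 per 100 days. PSMB5 was measured at 59.4 to 222 CPM (median 101) in the 7 cows sampled at 41 to 102 days. In the 7 cows at 108 to 223 days it was measured at 39.3 to 258 CPM (median 53.4), and in the 7 cows at 224 to 270 days at 39.8 to 96.9 CPM (median 57.9). The 3 sets of cows overlapped, and the highest value belonged to HY cow 9 at 108 days, whose TMM factor was 0.482. The PSMB5 slope was -0.65 (SE 0.17, edgeR adjusted p = 0.0639), a fold change of 0.639 per 100 days.

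PSMB7, the trypsin-like catalytic subunit, had a median of 146 CPM (115 to 251) in the early set, 102 CPM (90.7 to 282) in the middle set and 104 CPM (81.1 to 153) in the late set. Its slope was -0.44 (SE 0.12, edgeR adjusted p = 0.0671). The caspase-like subunit PSMB6 had medians of 138, 76.6 and 70.8 CPM in the early, middle and late sets and a slope of -0.47 (SE 0.17, edgeR adjusted p = 0.108). All 3 catalytic subunits thus had a lower median in the middle and late sets than in the early set, with overlapping ranges. Among the beta subunits without a catalytic site, PSMB2 had medians of 160, 86.7 and 80.9 CPM and a slope of -0.53 (SE 0.14, edgeR adjusted p = 0.0663), close to that of PSMB5. PSMB4 had the shallowest slope of the ring, at -0.21 (SE 0.14, edgeR adjusted p = 0.366). Summed over the ring, the median level was 1144 CPM in the early, 661 CPM in the middle and 716 CPM in the late set.

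**Figure D2:**
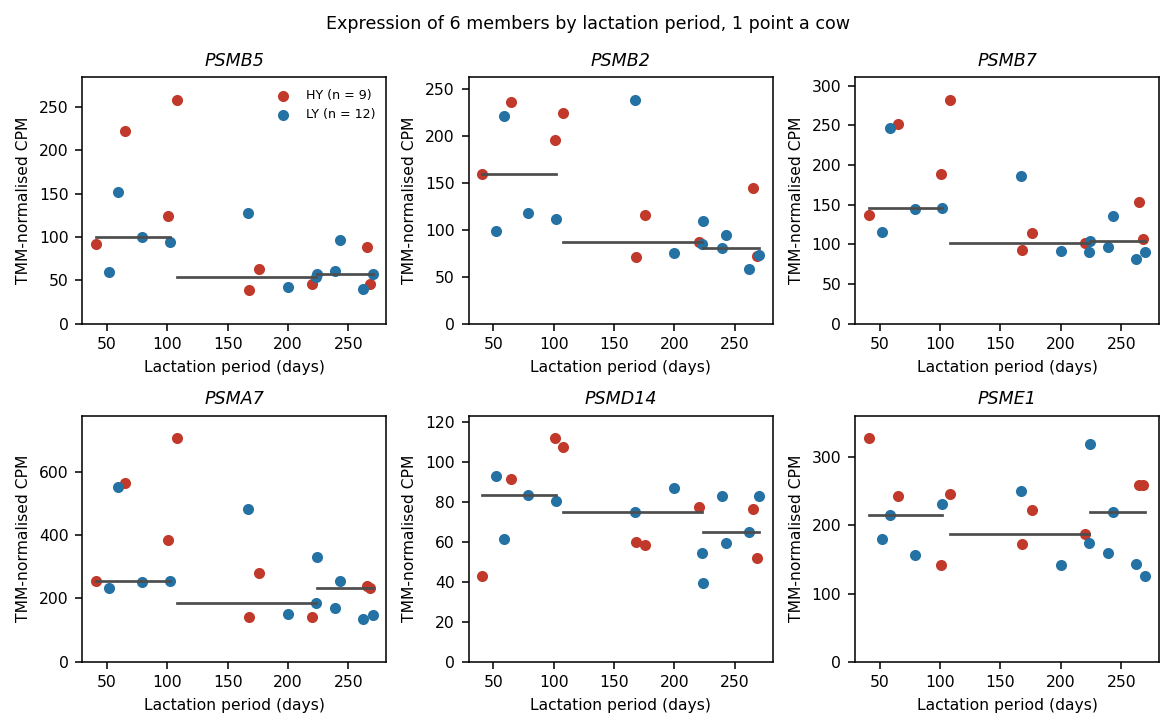
TMM-normalised CPM of PSMB5, PSMB2, PSMB7, PSMA7, PSMD14 and PSME1 in each cow against lactation period in days, with 1 point a cow colored by group and a grey bar at the median of each set of 7 cows (early, middle, late). The 3 beta subunits, PSMA7 and PSMD14 had their highest median in the early set. The ranges of the sets overlapped for PSMB5, PSMB7, PSMD14 and PSME1. PSMB5 reached its highest value in HY cow 9 at 108 days, a cow with a TMM factor of 0.482.

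In the alpha ring, 4 of 7 subunits had an unadjusted p under 0.05, and the median slope was -0.24. PSMA7 stood out from the ring with a slope of -0.54 (SE 0.17, edgeR adjusted p = 0.0797) and medians of 255, 185 and 233 CPM in the early, middle and late sets. The slopes of PSMA4 (-0.36), PSMA6 (-0.34) and PSMA5 (-0.24) were smaller, and PSMA2 had a slope of 0.030 (SE 0.12). The core chaperones PSMG1 and PSMG3, which help to assemble the alpha ring, had slopes of -0.44 (SE 0.15, edgeR adjusted p = 0.0952) and -0.50 (SE 0.18, edgeR adjusted p = 0.106), while PSMG2, the binding partner of PSMG1, had a slope of 0.053 (SE 0.089).

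In the regulatory particle, the ATPases PSMC3 and PSMC5 had the lowest p. PSMC3 had medians of 176, 129 and 106 CPM in the early, middle and late sets and a slope of -0.40 (SE 0.12, edgeR adjusted p = 0.0787). PSMC5 had medians of 143, 98.0 and 103 CPM and a slope of -0.33 (SE 0.10, edgeR adjusted p = 0.0797). All 6 ATPases had a negative slope, 3 of them at an unadjusted p under 0.05, with a median of -0.26. The ubiquitin receptor PSMD4 had a slope of -0.34 (SE 0.12, edgeR adjusted p = 0.0948), and the base chaperone PSMD9 had a slope of -0.32 (SE 0.10, edgeR adjusted p = 0.0823). PSMD1 and PSMD2, the scaffolds of the base, had slopes of -0.087 (SE 0.12) and -0.11 (SE 0.12).

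In the lid, PSMD3 was the one subunit of 8 with an unadjusted p under 0.05 and had a slope of -0.33 (SE 0.13, edgeR adjusted p = 0.124), and the median slope was -0.15. PSMD14, the deubiquitinase that removes ubiquitin before degradation, was measured at 42.9 to 112 CPM (median 83.5) in the early, 54.3 to 107 CPM (75.02) in the middle and 39.4 to 82.8 CPM (64.8) in the late set. Its slope was -0.14 (SE 0.12, edgeR adjusted p = 0.447), with a 95% interval of -0.37 to 0.087. PSMD12 had a positive slope of 0.15 (SE 0.11, edgeR adjusted p = 0.411). PSMD8 had a slope of -0.60 with an SE of 0.44 and a 95% interval of -1.49 to 0.28, in a fit that includes the 4 cows with almost no reads.

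The activators that cap the core in place of the regulatory particle had slopes near 0. PSME1 was measured at 142 to 328 CPM (median 216) in the early, 142 to 250 CPM (188) in the middle and 125 to 319 CPM (219) in the late set, with a slope of -0.087 (SE 0.12, edgeR adjusted p = 0.666). PSME2, its partner in the same ring, had medians of 163, 121 and 147 CPM and a slope of -0.12 (SE 0.11, edgeR adjusted p = 0.475). The nuclear activator PSME4 had a slope of 0.019 (SE 0.13), and PSMF1, which binds the core and inhibits it in vitro, had a slope of -0.27 (SE 0.13, edgeR adjusted p = 0.219). The highest slope of the members was that of the meiotic protein PSMC3IP, at 0.50 (SE 0.34, edgeR adjusted p = 0.360).

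**Figure D3:**
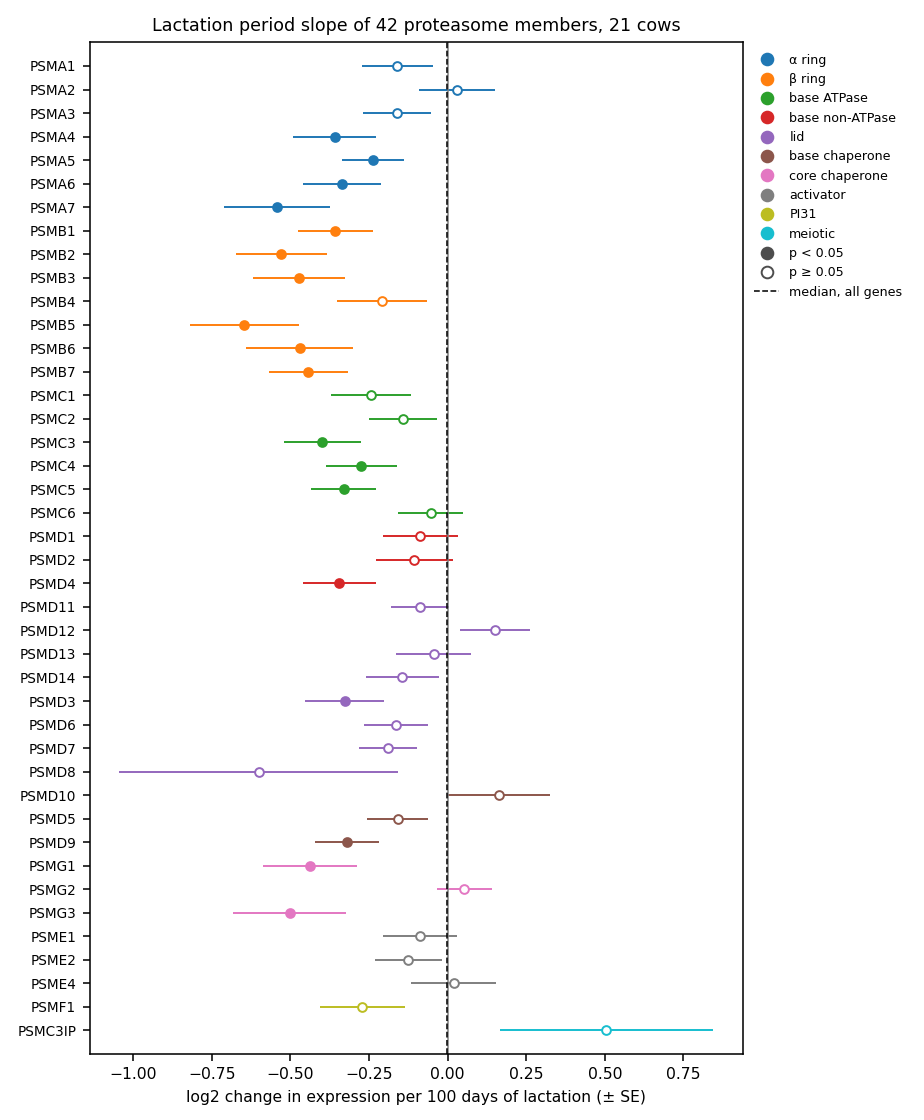
Slope of each of the 42 tested members against lactation period, as the log2 change per 100 days with its SE over 21 cows, ordered and colored by role; filled points have an unadjusted p under 0.05 and the dashed line is the median of all genes tested (-0.0036). The 7 beta subunits lie between -0.65 (PSMB5) and -0.21 (PSMB4), and the 3 activators lie between -0.12 and 0.019.

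How the counts were scaled changed this result. Scaled by library size alone, the median slope of all genes moved to 0.16 and that of the members to -0.017. Of 42 slopes, 23 were negative, 13 having turned positive (PSMD14, PSME1 and PSME2 among them). Only PSMB5, with a negative slope, had an unadjusted p under 0.05, against 13.0% of all genes (292 genes negative and 975 positive). Without HY cows 8 and 9, a setting chosen after the data were seen, 13 members had an unadjusted p under 0.05, all with a negative slope. Of all genes, 12.7% were under that value (729 genes negative and 510 positive), and the median member slope was -0.17. The TMM factor had a median of 0.914 in the early, 1.09 in the middle and 1.18 in the late set. Leaving out HY cow 1 gave 2 members called by edgeR, PSMB5 (adjusted p = 0.0434) and PSMB7 (adjusted p = 0.0474), and leaving out LY cow 9 gave 3, PSMB2, PSMB5 and PSMB7, in fits that called 3.19% and 3.20% of all genes.

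Marker genes of the cell types were also fitted against lactation period, and edgeR called 0 of them at an adjusted p under 0.05. The lowest edgeR adjusted p of a marker was 0.114, in the neutrophil list. Of all genes tested, 14.9% had a negative and 9.19% a positive slope at an unadjusted p under 0.05. In edgeR's fit, all 11 epithelial markers had a negative slope (median -0.999), 4 of them at an unadjusted p under 0.05, and their median share of counts was 32.1% in the early, 5.58% in the middle and 11.6% in the late set, with ranges of 0.202% to 60.5%, 0.121% to 56.6% and 0.270% to 30.9%. Of 7 neutrophil markers, 6 had a positive slope, 4 of them at an unadjusted p under 0.05, and S100A12 had a negative one (-0.11, SE 0.18). The list median was 0.52, and the share of the 7 markers ranged from 0.220% to 0.681%, 0.0867% to 1.16% and 0.462% to 1.21% in the 3 sets. All 7 T cell markers had a positive slope (median 0.59), 0 of them at an unadjusted p under 0.05, with shares of 0.00721% to 0.0639%, 0.00249% to 0.126% and 0.0153% to 0.0880%. Without HY cows 8 and 9 the epithelial list had a median slope of -0.39, with 9 of 11 negative, and under library size alone one of -0.54, with 0 of its markers at an unadjusted p under 0.05 in either fit. The 7 macrophage markers (median -0.095) and the 3 B cell markers (median -0.40) had 0 genes under that value.

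Covariates for the marker levels were added after the data were seen. With the summed level of the epithelial or neutrophil markers, 19 and 21 members had an unadjusted p under 0.05, all with a negative slope. Of all genes, 24.97% and 24.8% were under that value (1386 negative and 1042 positive, and 1453 negative and 960 positive). With the T cell markers as a covariate there were 5, all negative, namely PSMD9, PSMB2, PSMB5, PSMC3 and PSMC5. Of all genes, 7.95% were under that value (365 negative and 408 positive), and the median member slope was -0.11. Across the 21 cows, 39 of 42 members had a negative correlation with the T cell marker level, with a median r of -0.541 over all members and -0.698 over the beta ring. PSMB5 had an r of -0.802, PSMA6 of -0.816 and the lid subunit PSMD6 of -0.823, while PSMC3IP had an r of 0.590. The median r of the members was 0.126 with the epithelial, -0.095 with the neutrophil, -0.195 with the B cell and -0.0063 with the macrophage markers. The same correlations were not computed for all genes tested, so they cannot be read as particular to the members. All these values share the same libraries and TMM factors, and the part of cell composition in the slopes was not tested further.

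The slope was then compared between HY and LY cows. In a fit with a slope for each group, PSMB2 had -0.53 (SE 0.22) in HY and -0.49 (SE 0.20) in LY, PSMB7 had -0.41 (SE 0.19) and -0.43 (SE 0.17), and PSMB5 had -0.80 (SE 0.27) and -0.46 (SE 0.24). The difference of the PSMB5 slopes was -0.34, with a 95% interval from -1.05 to 0.38 (edgeR adjusted p = 0.9999). The lowest unadjusted p of a difference was that of PSMA6, 0.207, with slopes of -0.14 in HY and -0.47 in LY. PSMA1 (0.23, SE 0.24), PSMD13 (-0.20, SE 0.24) and PSMB3 (0.18, SE 0.31) had the next lowest p beside PSMB5. By edgeR's quasi-likelihood test of the difference, 0 members had an adjusted p under 0.05, as was the case with DESeq2, and 0 had an unadjusted p under 0.05, while 1.13% of all genes did.

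The same members were also correlated with lactation period on log2 expression. PSMD9 had a Pearson r of -0.676 (permutation p = 0.00126, n = 21) and a Spearman rho of -0.651 (permutation p = 0.00204). PSMB2 had an r of -0.644 (permutation p = 0.00226) and PSMB5 an r of -0.600 (permutation p = 0.00418), with Spearman values of -0.634 (permutation p = 0.00268) and -0.547 (permutation p = 0.0120). After the 2 cows sampled farthest from the median day were left out, r was -0.660 for PSMD9, -0.713 for PSMB2 and -0.715 for PSMB5. The 16 cows whose mapping rate lay below 85% gave r of -0.684, -0.699 and -0.671, and the other 5 cows were too few for a value. Over all members, 20 of 42 had an unadjusted permutation p of Pearson r under 0.05, against 24.7% of all genes. After Benjamini-Hochberg adjustment over 9724 genes the lowest permutation p of a member was 0.0952 for Pearson's r and 0.134 for Spearman's rho, so 0 members passed.

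The immunoproteasome subunits served as the comparison set. None of PSMB8, PSMB9 and PSMB10 had an unadjusted p under 0.05 against lactation period, with slopes of -0.15 (SE 0.18), -0.095 (SE 0.22) and -0.37 (SE 0.20) in edgeR's fit. The ratio of PSMB8 to PSMB5 counts, which is not corrected for gene length and is comparable only between cows, ranged from 0.450 to 8.56 (median 2.87). The ratio of PSMB9 to PSMB6 ranged from 0.0685 to 0.953 and that of PSMB10 to PSMB7 from 0.114 to 1.02. HY cow 9 had the lowest PSMB8 to PSMB5 ratio, and LY cow 12 the highest. PSMB8 over PSMB5 had a Pearson r of 0.356 with lactation period (permutation p = 0.114) and a Spearman rho of 0.236 (permutation p = 0.301, n = 21). Leaving out the 2 cows farthest from the median day gave 0.507, and the 16 cows of lower mapping rate gave 0.361. Of 15 relations between the 3 ratios and the 5 traits, none passed the adjustment, the lowest adjusted permutation p being 0.928 for r.

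Other genes of the ubiquitin-proteasome pathway were taken from a list of 37 symbols, of which 31 were tested. With lactation period, 8 had a negative and 1 a positive slope at an unadjusted p under 0.05 (14.9% and 9.19% of all genes), 0 were called by edgeR, and the median slope was -0.10. RPS27A, which encodes ubiquitin joined to a ribosomal protein, had a slope of -0.68 (SE 0.17, edgeR adjusted p = 0.0628). The polyubiquitin gene UBB had a slope of -0.026 (SE 0.16). Among the proteins that bring substrates to the proteasome, UBQLN2 had a negative slope (-0.42, SE 0.13), and UBQLN1 had a positive slope (0.42, SE 0.15, edgeR adjusted p = 0.101). TXNL1, a thioredoxin bound to the regulatory particle, had a slope of -0.50 (SE 0.16). POMP, which drives maturation of the core, had a slope of -0.17 (SE 0.10), and NFE2L1, the transcription factor that induces proteasome genes when the proteasome is inhibited, had a slope of -0.16 (SE 0.091). In a list of 10 antigen presentation genes, only TAP2, a subunit of the peptide transporter, had an unadjusted p under 0.05, with a positive slope of 0.42.

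The members did not vary as one block across cows. The median Pearson r over 861 pairs of members was 0.356, with 624 pairs positive, while the median over all pairs of genes tested was 0.0015. These correlations share libraries and scaling and are a description. Within the beta ring the median r was 0.897 (0.670 to 0.967, 21 pairs), within the alpha ring 0.667, among the base ATPases 0.252 and within the lid 0.111. Scaled by library size alone, the median r over all pairs of members was 0.475, with 743 pairs positive. The beta ring then had a median r of 0.779, the base ATPases 0.507 and the lid 0.473. The median over all genes was not computed under that scaling. Without HY cows 8 and 9 the beta ring had 0.871. PSMB5 and PSMB7 were the closest pair (r = 0.967), followed by PSMB1 and PSMB7 (0.955) and by the ubiquitin receptor PSMD4 with the chaperone PSMG3 (0.953).

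Some subunits of one substructure followed another one. PSMA7 had a median r of 0.917 with the beta ring and of 0.403 with the other alpha subunits. Of the ATPases, PSMC5 (0.901), PSMC3 (0.873), PSMC1 (0.855) and PSMC4 (0.801) were close to the beta ring, whereas PSMC2 had a median r of 0.233 with the beta ring and 0.708 with the alpha ring, and PSMC6 had 0.115 and 0.576. PSMD3 (0.895), PSMD4 (0.887), PSMD9 (0.855), PSMG3 (0.826) and PSMF1 (0.794) were also close to the beta ring, and PSMD14 (0.218) and PSMD1 (0.148) were not. PSME1 and PSME2 were closest to each other (r = 0.883). Relative to the mean of all other members, PSMC3IP (-0.655), PSMD12 (-0.264), PSME4 (-0.184), PSMD10 (-0.153), PSMA2 (-0.035) and PSMG2 (-0.027) had a negative r. HY cow 9 had the highest level of 20 of 42 members and HY cow 8 of 6, and LY cow 12 had the lowest level of 16. These levels are CPM, and HY cows 8 and 9 had TMM factors of 0.450 and 0.482, where a low factor raises CPM. How far the ranks depend on the scaling was not tested.

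**Figure D4:**
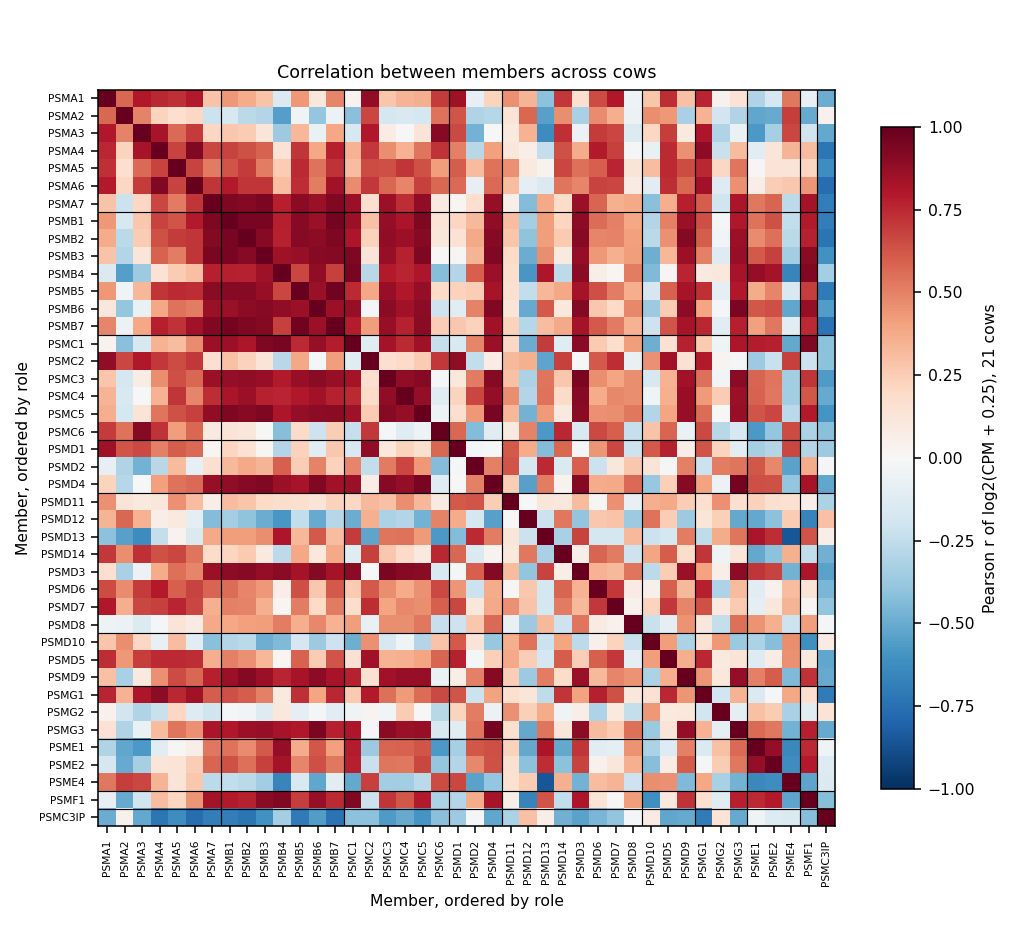
Pearson correlation of log2(CPM + 0.25) over the 21 cows for each pair of the 42 tested members, ordered by role with black lines between roles; red is positive and blue is negative. The 7 beta subunits form one red square (median r 0.897) that extends to PSMA7, PSMC1, PSMC3, PSMC4, PSMC5, PSMD3, PSMD4, PSMD9, PSMG3 and PSMF1, and PSMC3IP is blue against most members.

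Next, HY and LY cows were compared. Most members had a higher fitted level in HY, but edgeR's quasi-likelihood test called 0 of 42 members and 0% of all genes at an adjusted p under 0.05, as did DESeq2 and limma voom. The difference was positive for 40 of 42 members, against 59.1% of all genes, with a median of 0.20 on the log2 scale against 0.062. This fit held no term for lactation period. HY cows had a median of 168 days and LY cows one of 211.5, so the fit does not separate group from lactation period. An alternative fit with parity and lactation period as covariates was also run, and its differences are not reported here. PSMD11, a lid subunit, was the one member with an unadjusted p under 0.05, where 1.91% of all genes were. It was measured at 73.0 to 116 CPM (median 95.2) in HY and at 56.2 to 109 CPM (median 76.0) in LY, so that the groups overlapped, and the difference was 0.30 (SE 0.14, edgeR adjusted p = 0.999). PSMD2 had a median of 212 CPM (133 to 335) in HY and 154 CPM (122 to 257) in LY, a difference of 0.33 (SE 0.19, edgeR adjusted p = 0.999). PSMD3 (0.39, SE 0.21), PSMC3 (0.38, SE 0.22) and PSMC1 (0.33, SE 0.21) followed by p. The largest difference was that of PSMB5, 0.47 (SE 0.34, edgeR adjusted p = 0.999), and the lowest that of PSMC3IP, -0.31 (SE 0.59).

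PSMB6, PSMB7, PSMD14, PSME1 and PSME2 had differences of 0.20, 0.32, 0.063, 0.25 and 0.19, with edgeR's unadjusted p between 0.197 and 0.743. The sign of the median difference changed with the scaling. Scaled by library size alone, the median difference was -0.042 for the members and -0.14 for all genes. The median of the members thus stayed above that of all genes, as in the main fit. When HY cows 8 and 9 were left out, the median of the members stayed positive at 0.039, and PSMB5 differed by -0.13.

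**Figure D5:**
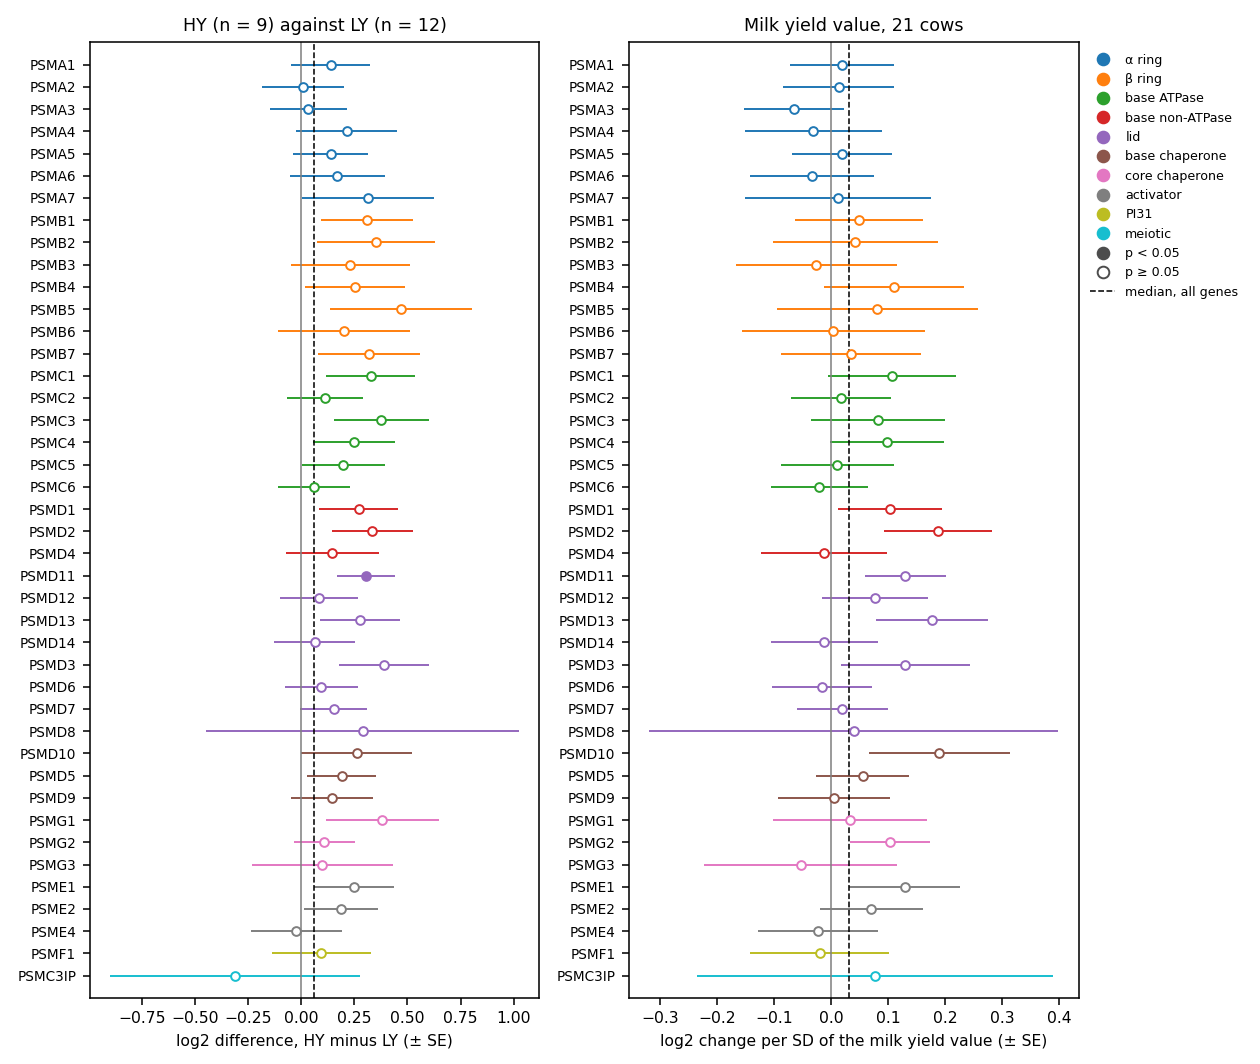
Log2 difference between HY (n = 9) and LY (n = 12) cows (left) and log2 change per SD of the milk yield value over 21 cows (right) for each of the 42 tested members with its SE, ordered and colored by role; filled points have an unadjusted p under 0.05 and dashed lines are the medians of all genes tested (0.062 and 0.032). On the left only PSMD11 is filled and 40 points lie above 0, and on the right no point is filled.

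With the milk yield value, effects were small, in a fit that held no term for lactation period or group. LY cows 2, 8 and 9 had the lowest values (-369, -404 and -364) and were sampled at 59, 79 and 52 days. The fit therefore does not separate milk yield from lactation period or from group. An increase of 1 SD of the trait, 264 in the units of the labels, went with a median log2 change of 0.034 over the members and of 0.032 over all genes. The effect was positive for 31 of 42 members, against 59.8% of all genes. By edgeR's quasi-likelihood test 0 members and 0% of genes had an adjusted p under 0.05, and 0 members had an unadjusted p under 0.05, against 1.72% of all genes. DESeq2 and limma voom also called 0, with 2 and 0 members at an unadjusted p under 0.05. The lowest p belonged to PSMD2 (0.19, SE 0.095, edgeR adjusted p = 0.9997), PSMD11 (0.13, SE 0.071), PSMD13 (0.18, SE 0.097), the base chaperone PSMD10 (0.19, SE 0.12) and PSMG2 (0.10, SE 0.071). PSMA3 had the lowest effect, -0.065 (SE 0.088). The catalytic subunits PSMB5, PSMB6 and PSMB7 had effects of 0.081 (SE 0.18), 0.0042 (SE 0.16) and 0.035 (SE 0.12), PSMD14 one of -0.011 (SE 0.095), PSME1 one of 0.13 (SE 0.097) and PSME2 one of 0.071 (SE 0.091). Since HY and LY cows do not overlap in the milk yield value, a correlation over all cows was not read for PSMD11, and within the groups its r was 0.432 in HY and -0.221 in LY. Of the pathway genes, the unfolding ATPase VCP, which extracts ubiquitinated proteins for the proteasome, had an effect of 0.20 (SE 0.093) and its cofactor FAF2 one of 0.19 (SE 0.083), both at an unadjusted p under 0.05 and with an edgeR adjusted p of 0.9997.

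Milk fat, milk protein and milk solid gave no call either, in fits that also held no term for lactation period or group. For milk protein the lowest value of an HY cow was 1.54 and the highest of an LY cow 1.27, so the groups did not overlap. EdgeR, DESeq2 and limma voom each called 0 members at an adjusted p under 0.05, and each had 0 members at an unadjusted p under 0.05 for all 3 traits. In edgeR's fit, 0.864% of all genes were at an unadjusted p under 0.05 for milk fat, 1.07% for milk protein and 1.33% for milk solid. For milk fat, the effect per SD was positive for 37 of 42 members (62.3% of all genes), and PSMD11 (0.13, SE 0.073) and PSMD3 (0.20, SE 0.12) had the lowest p, followed by PSMD2 (0.15, SE 0.10), PSMC1 (0.17, SE 0.12) and PSMC4 (0.14, SE 0.10). The effects ranged from -0.042 (PSMC3IP) to 0.37 (PSMD8, SE 0.43). For milk protein, 33 effects were positive (61.6% of all genes), from -0.060 for PSMA3 to 0.17 for PSMD10 (SE 0.12), and PSMD11 (0.13, SE 0.072), PSMD2 (0.16, SE 0.099), PSMD13 (0.16, SE 0.099), PSMD10 and PSME1 (0.12, SE 0.099) had the lowest p. For milk solid, 26 effects were positive (56.3% of all genes), from -0.12 for PSMG3 to 0.21 for PSMD10 (SE 0.12), and PSMD12 (0.14, SE 0.091), PSMD1 (0.12, SE 0.091), PSMD11 (0.093, SE 0.073) and PSMG2 (0.079, SE 0.072) followed by p. Across these traits the catalytic subunits PSMB5, PSMB6 and PSMB7 had effects between -0.058 and 0.24. PSMD14 had effects of -0.034, -0.022 and 0.054 for fat, protein and solid, PSME1 of 0.097, 0.12 and 0.028, and PSME2 of 0.039, 0.064 and -0.025.

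By symbol, all 43 members matched an entry of RefSeq's assembly ARS-UCD2.0, on 18 chromosomes, but the reads were mapped to another assembly, bosTau7, so no coordinates are given. In the RefSeq annotation 7 members overlapped another counted gene, namely PSMB3 with PCGF2, PSMB5 with PSMB11 and the reverse, PSMD1 with HTR2B, PSMD13 with NBAS, PSMG2 with PTPN2 and PSMC3IP with MLX. Whether the counting used strand was not given in the sources used here. Reads on overlapping genes may have been set aside as ambiguous or counted for either gene, and which of these applied to these members cannot be told.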

How the data were processed

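RNA of milk somatic cells of 21 Holstein cows was extracted with TRIzol and sequenced as paired-end reads on a HiSeq 2000. The authors trimmed the reads with Trimmomatic (minimum length 75 bases), mapped them to bosTau7 with TopHat2 and Bowtie2, and deposited 1 table per cow of HTSeq read counts per gene, without normalization; versions were not given in the sources used here. The unassigned-read lines and a nameless line holding 0.0360% to 0.151% of counts were left out, and 23 symbols had turned into dates. Every pair of cows differed beyond sampling noise (chi-square per degree of freedom of at least 37.9).

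Genes with at least 10 counts in at least 7 cows were fitted with edgeR 4.0.16 (TMM factors, robust quasi-likelihood test, Benjamini-Hochberg over all 9724 genes) in R 4.3.3, each trait in its own fit over all cows. Effects are log2 changes per 100 days, per SD of a trait, or HY minus LY, with SE from the F statistic. Alternatives used DESeq2 1.42.0, limma 3.58.1, other scalings, filters and covariates, and the study's regressions. Correlations used log2(CPM + 0.25) and 100000 two-sided permutations. The fit was tested on simulated counts. Values were given for PSMB5, PSMB6, PSMB7, PSMD14, PSME1 and PSME2, for the 5 members with the lowest p and for both ends of the range in each comparison. The members and lists were chosen with earlier results of these data known. Each cow is 1 sample, and p-values measure the spread between cows. Some genes of the pathway list are not reported here by name.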

Additional observations from a re-analysis of the deposited data

How the results depend on the processing

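Of the values of the members named by the rule in each comparison, recomputed under its alternatives, 518 kept their direction and their side of an unadjusted p of 0.05, 19 came to lie under it, 13 no longer did and 5 turned their sign. Among these, the sign turned under library size alone for the lactation slopes of PSMD14 (0.091), PSME1 (0.054) and PSME2 (0.012), and without HY cows 8 and 9 for PSMC3IP with milk fat (0.048) and PSMB5 in HY against LY (-0.13). Over all 42 members, 13 lactation slopes turned from negative to positive under library size alone, PSMC6 and PSMD1 turned with the T cell markers as a covariate, PSMC6 and PSME4 in the 16 cows and PSMD13 without HY cows 8 and 9. The cause was not tested. The fit of the 16 cows and the fit without HY cows 8 and 9 held fewer samples.

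For lactation period, DESeq2 called 8 members where edgeR's quasi-likelihood test called 0. At an unadjusted p under 0.05, 18 members became 1 under library size alone and 5 with the T cell markers as a covariate. Leaving out each cow in turn gave 0 to 3 members called by edgeR and 16 to 20 at an unadjusted p under 0.05. The other settings, among them the median-of-ratios size factors, both count filters, limma voom, the mapping set and the 16 cows, kept both counts within 1.5 times.

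For milk yield, 0 members at an unadjusted p under 0.05 became 1 under median-of-ratios size factors, 2 each with DESeq2, with parity and lactation period as covariates, and with the study's ordinary and robust regressions, and 3 with its multiple regression. Leaving out each cow gave 0 to 2, PSMD2 without HY cow 3, 6 or 9 or LY cow 4 or 5, and PSMD13 without LY cow 4 or 12. For milk fat, 0 became 1 in the 16 cows and 1 in the ordinary regression, and 0 to 4 on leaving out a cow, 4 without HY cow 2 (PSMD3, PSMC1, PSMC4 and PSMB2) and 1 without LY cow 4. For milk protein, 0 became 1 with the covariates and 1 in the ordinary regression, and stayed at 0 without any one cow. For milk solid, 0 became 1 with the covariates. In HY against LY, 1 became 0 under library size alone, without a count filter, with 10 counts in every cow, with the mapping set as a covariate and in the 16 cows. At an adjusted p under 0.05, edgeR called 0 members for milk yield, milk fat and milk protein whichever cow was left out.

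No paired analysis was possible because each cow belongs to 1 group and the cow numbers are shared by no other sample. Fits without the 2 cows of low TMM factor, without the robust prior and with marker levels as covariates were chosen after the data were seen. The milk traits have no unit, and PSMD8 and PSMC3IP had too few counts in some cows for a narrow interval.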
